A study of Mus musculus with 25 samples.

Results

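The genes described here make cholesterol and fatty acids or control their supply. They were taken from a list of 37 mouse genes in 3 groups by role, and a transcript cluster (the set of probes for 1 transcript unit) was taken where the probe table gave that gene as its single symbol. Of the 37, 32 were measured, each by 1 cluster: 17 of 19 enzymes of the sterol pathway, 7 of 9 genes of sterol sensing and handling, and 8 of 9 fatty acid enzymes. These 32 are among 22206 clusters on the array. Acat2, Tm7sf2, Srebf1, Nr1h2 and Scd2 carry no cluster under those symbols in the probe table used here and were not analysed.

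Values came from invariant natural killer T (iNKT) cells, T lymphocytes that recognise lipids held by CD1d, sorted from the thymus of C57BL/6 mice. All groups were gated as TCRb+, CD1d-PBS57 tetramer+ and CD24-, and stages were set by 2 surface proteins: S1 is CD44- NK1.1-, S2 is CD44+ NK1.1- and S3 is CD44+ NK1.1+. The labels join S1 and S2 as S1_S2. There was 1 array of dKOMst S3 cells (loss of both Mst1 and Mst2, kinases of the Hippo pathway), 5 of Mst1KO S3 cells and 7 of WT S3 cells. At the earlier stages there were 2 arrays of dKOMst S1_S2, 4 of Mst1KO S1_S2 and 6 of WT S1_S2 cells. The labels give neither the design of the alleles nor the age or sex of the mice, and do not say that replicates came from separate animals, so a p-value here weighs differences against the spread of these 25 arrays alone, and that spread may be technical.

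Cells make cholesterol from acetyl-CoA through mevalonate, farnesyl diphosphate, squalene and lanosterol, and make palmitate from acetyl-CoA through malonyl-CoA before elongases and desaturases reshape it. Both pathways are run by SREBP transcription factors: when sterol in the endoplasmic reticulum falls, SCAP carries the SREBP precursor to the Golgi for cleavage, while INSIG proteins hold SCAP back when sterol is plentiful. Dividing lymphocytes are known to draw on both pathways for membrane, and farnesyl and geranylgeranyl groups made by the sterol pathway anchor small GTPases.

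Values are on a log2 scale, on which a difference of 1 is a doubling. Values compare groups for 1 cluster and do not rank genes against each other. The negative control probes had medians of 6.19 to 6.59 over the arrays; 25 of the 32 genes read above that median on all 25 arrays. Idi1 did so on 0 arrays, so no difference is quoted for it. Scd1 (18 arrays), Insig2 (22), Hmgcs1 (23), and Sqle, Hsd17b7 and Fads2 (24 each) did so on part of them. The numbers in the array titles form separate blocks, block 1 of the lower numbers (16 arrays) and block 2 of the higher numbers (9 arrays), and the labels do not say what they are. WT arrays lie in both, Mst1KO arrays in block 1 alone and dKOMst arrays in block 2 alone. The block had a term in the model, which passed the test for 2 of the 32 genes, Fdps and Fasn, and for 6.13% of all clusters. Stk4, which encodes Mst1, averaged 9.31 ± 0.07 (SD, n = 4) in Mst1KO S1_S2 against 10.46 ± 0.19 (n = 6) in WT S1_S2, while Mst1KO S3 stood at 9.74 ± 0.28 (n = 5) against 10.28 ± 0.42 (n = 7) in WT S3, and dKOMst S1_S2 at 9.95 ± 0.46 (n = 2). It was lower in Mst1KO than in WT at S1_S2 (-0.92, limma adjusted p = 0.00592) and did not pass in Mst1KO at S3 (-0.35, adjusted p = 0.152, with overlap) or in dKOMst at S1_S2 (-0.74 against WT, adjusted p = 0.0829). The dKOMst S3 array read 10.08. Mst2 (Stk3) has no cluster under that symbol in the probe table, so these values do not check the double loss. The labels do not say where the deletion lies relative to its probes. Markers of T and iNKT identity had array means of 11.35 to 11.72 in the 6 groups, and Cd24a read below the negative control median on every array.

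With the step to S3 in WT cells, genes of all 3 groups changed in both directions. Srebf2 and Insig1 rose and Abca1 fell, while the sterol enzymes split between a rise of Mvk and a fall of Fdps, and the fatty acid enzymes between a rise of Elovl5 and a fall of Fasn. A gene was called where its limma p was under 0.05 after Benjamini-Hochberg adjustment over the whole array. By that rule 7 of the 32 genes were called, 4 higher and 3 lower in S3, against 16.9% of all clusters called in either direction (8.18% higher and 8.75% lower). The share of these genes called is thus near the background. In these bulk samples fewer cells that express a gene and less RNA per cell cannot be told apart. The count of called genes was 11 without WT S3 replicate 1 and between 7 and 10 without any other 1 of the 13 WT arrays. All 7 calls were kept in each of these omissions.

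**Figure D1:**
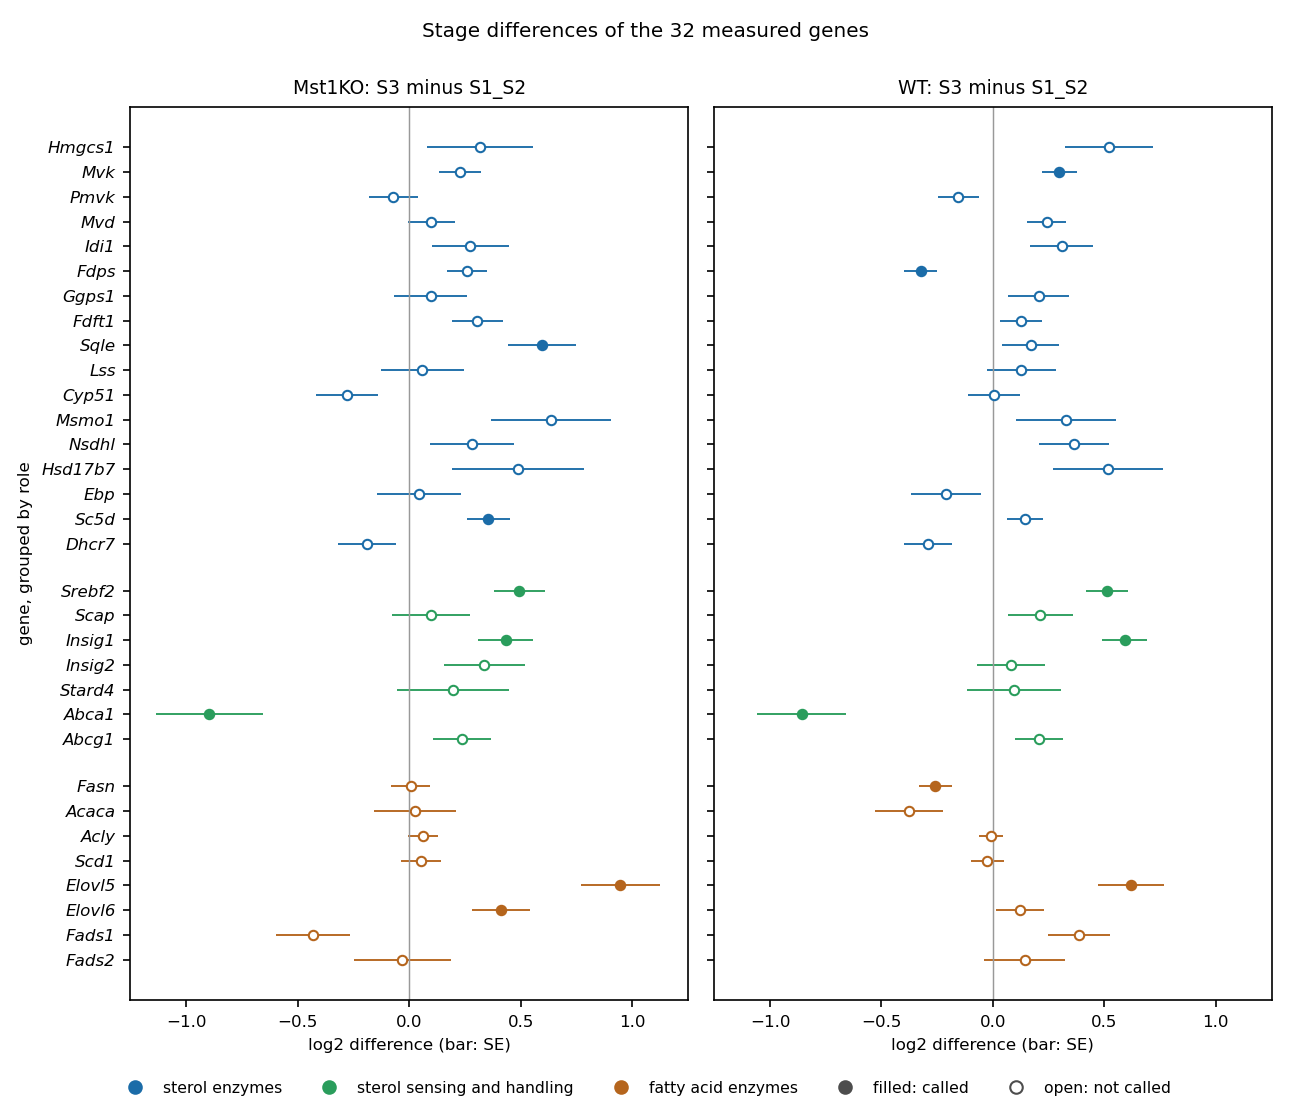
Log2 difference of S3 minus S1_S2 for the 32 measured genes in Mst1KO cells (left) and WT cells (right), with SE bars; filled points passed the test. Srebf2, Insig1 and Elovl5 lie right of 0 and Abca1 left of 0 in both panels, and Idi1 is shown although it read below the negative controls on every array.

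Srebf2 encodes SREBP-2, the factor that drives most sterol enzyme genes. In WT S3 it read 10.70, 11.08 and 11.16 (lowest, median and highest of 7 arrays), against 10.29, 10.49 and 10.72 in the 6 WT S1_S2 arrays. The groups met only at their edges, the lowest S3 array lying just under the highest S1_S2 array. The difference was 0.51 ± 0.09 (SE; fold 1.43, limma adjusted p = 0.000296), and it was 0.52 within block 1 (adjusted p = 0.0226) and 0.50 within block 2 (adjusted p = 0.0378). In Mst1KO S3 the 5 arrays read 10.89, 10.78, 10.98, 10.90 and 11.00, against 10.44, 10.59, 10.53 and 10.11 in Mst1KO S1_S2. Those groups did not overlap, and the difference was 0.49 ± 0.11 (fold 1.41, limma adjusted p = 0.0049).

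Insig1 encodes the endoplasmic reticulum protein that retains SCAP and is itself a known SREBP target. It read 8.37, 8.77 and 8.86 (lowest, median, highest) in WT S3, against 7.76, 8.18 and 8.23 in WT S1_S2. Every S3 array was above every S1_S2 array. The difference of 0.59 ± 0.10 (fold 1.51, limma adjusted p = 0.000144) was the one with the smallest adjusted p among these genes in WT, with 0.57 within block 1 (adjusted p = 0.0197) and 0.62 within block 2 (adjusted p = 0.0213). In Mst1KO S3 the arrays read 8.66, 8.56, 8.80, 8.74 and 8.43, against 8.31, 8.13, 8.38 and 8.01 in Mst1KO S1_S2, again without overlap. There the difference was 0.43 ± 0.12 (fold 1.35, limma adjusted p = 0.0239). That call was lost without Mst1KO S1_S2 replicate 2 (adjusted p = 0.0635) or 4 (0.1) and without Mst1KO S3 replicate 3 (0.0605) or 4 (0.0542).

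The 250 bases before the start of Srebf2 (chr15:82147019-82147268, plus strand), Insig1 (chr5:28071162-28071411, plus), Mvk (chr5:114444019-114444268, plus) and Elovl5 (chr9:77917115-77917364, plus) are shown because these 4 genes rose with stage in WT cells. Abca1 (chr4:53159896-53160145, minus) is shown because it fell, and Hmgcs1 (chr13:119690101-119690350, plus) because it held the only match to the sterol regulatory element core. Sequences are from RefSeq, build GRCm38.p6, and read 5′ to 3′ on the gene's strand. Capitals mark the NF-Y box (CCAAT, or ATTGG on the other strand) and the core TCACNCCAC.
Srebf2: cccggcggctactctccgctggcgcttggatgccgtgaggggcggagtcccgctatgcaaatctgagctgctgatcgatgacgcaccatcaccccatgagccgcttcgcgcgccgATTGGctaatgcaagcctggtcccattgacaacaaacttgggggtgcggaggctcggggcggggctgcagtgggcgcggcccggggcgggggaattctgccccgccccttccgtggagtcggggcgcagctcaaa
Insig1: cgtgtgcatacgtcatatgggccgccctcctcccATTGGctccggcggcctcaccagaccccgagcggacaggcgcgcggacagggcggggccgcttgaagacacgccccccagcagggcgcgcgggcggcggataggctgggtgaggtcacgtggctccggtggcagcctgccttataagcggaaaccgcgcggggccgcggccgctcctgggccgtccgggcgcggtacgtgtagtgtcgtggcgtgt
Mvk: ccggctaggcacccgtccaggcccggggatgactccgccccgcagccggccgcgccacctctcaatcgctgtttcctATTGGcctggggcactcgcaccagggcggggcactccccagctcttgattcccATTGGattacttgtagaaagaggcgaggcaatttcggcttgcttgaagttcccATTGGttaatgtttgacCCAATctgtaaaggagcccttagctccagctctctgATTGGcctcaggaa
Elovl5: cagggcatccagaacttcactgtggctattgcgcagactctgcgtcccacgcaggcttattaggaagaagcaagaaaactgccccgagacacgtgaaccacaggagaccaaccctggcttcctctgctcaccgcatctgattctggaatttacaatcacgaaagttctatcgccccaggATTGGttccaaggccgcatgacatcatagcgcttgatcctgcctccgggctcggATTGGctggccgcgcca
Abca1: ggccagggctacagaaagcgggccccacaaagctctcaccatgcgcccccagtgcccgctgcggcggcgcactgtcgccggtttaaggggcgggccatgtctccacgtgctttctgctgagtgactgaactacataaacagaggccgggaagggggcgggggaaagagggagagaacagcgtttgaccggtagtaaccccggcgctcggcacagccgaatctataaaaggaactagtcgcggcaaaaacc
Hmgcs1: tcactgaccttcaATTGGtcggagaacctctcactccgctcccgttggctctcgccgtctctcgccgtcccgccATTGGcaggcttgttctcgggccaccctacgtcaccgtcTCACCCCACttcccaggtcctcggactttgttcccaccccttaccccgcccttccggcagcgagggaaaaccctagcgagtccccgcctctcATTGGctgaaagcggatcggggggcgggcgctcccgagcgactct

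NF-Y is a factor known to bind beside SREBP at sterol genes. Of the 25 measured genes with an entry in the promoter table, all 14 sterol enzymes, 3 of 5 sensing and handling genes and 2 of 6 fatty acid enzymes (Elovl5 and Fasn) held an NF-Y box on either strand in this window, against 37.5% of 27025 genes and 39.5% of 17491 protein-coding genes. Some genes have several starts, giving 31 windows for the 25, and a gene was counted if any of its windows held a match. Dhcr7, Pmvk and Insig2 also have windows without an NF-Y box. The core TCACNCCAC was in 1 of the 25, Hmgcs1, where it begins 137 bases before the start (all genes, 1.22%). The E-box CACGTG, another sequence that SREBPs can bind, was in 7 of the 25, or 28%, against 6.86% of all genes. Among the genes called in any comparison, Mvk, Sc5d, Srebf2, Insig1, Elovl5 and Fasn held an NF-Y box, and Abca1 and Elovl6 did not. In Fasn 2 of its 3 matches, on opposite strands, share letters. Fdps, Fdft1, Sqle, Stard4, Abcg1, Scd1 and Fads1 have no entry. A match is a description of the letters and was not tested against the expression values.

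Abca1, the pump that loads cholesterol onto lipid-poor apolipoprotein A-I, had the largest fall of the 32 genes in both stage comparisons. It read 7.88, 8.54 and 9.43 (lowest, median, highest) in WT S3, against 9.05, 9.53 and 10.10 in WT S1_S2. The ranges overlapped, with 2 of the 7 S3 arrays above the lowest S1_S2 array. The difference was -0.86 ± 0.20 (fold 0.552, limma adjusted p = 0.00315), with -1.02 within block 1 (adjusted p = 0.00791) and -0.68 within block 2 (adjusted p = 0.267, not called). Mst1KO S3 arrays read 8.19, 9.10, 8.41, 8.23 and 8.95, against 9.24, 9.40, 9.70 and 9.56 in Mst1KO S1_S2, with no overlap. The fall was -0.90 ± 0.24 (fold 0.536, limma adjusted p = 0.016), a call lost without Mst1KO S1_S2 replicate 3 (adjusted p = 0.0591). Abcg1, the related pump for export to high-density lipoprotein, did not pass in either comparison (0.21 ± 0.11 in WT, adjusted p = 0.233; 0.24 ± 0.13 in Mst1KO, adjusted p = 0.285).

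The other sensing and handling genes did not pass either stage test. Scap differed by 0.21 ± 0.15 in WT and 0.10 ± 0.18 in Mst1KO cells. For Insig2, the second INSIG protein, these were 0.08 ± 0.15 and 0.34 ± 0.18, and for Stard4, a cytosolic sterol carrier, 0.10 ± 0.21 and 0.20 ± 0.25.

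Among the sterol enzymes, Mvk, which phosphorylates mevalonate, was the 1 gene called higher in S3 in WT cells. It read 7.98, 8.18 and 8.52 (lowest, median, highest) in WT S3, against 7.74, 7.90 and 7.97 in WT S1_S2, so that every S3 array lay above every S1_S2 array, though by a narrow gap. The difference was 0.30 ± 0.08 (fold 1.23, limma adjusted p = 0.0092), with 0.23 within block 1 (adjusted p = 0.245) and 0.37 within block 2 (adjusted p = 0.11), neither of them called. In Mst1KO cells Mvk differed by 0.23 ± 0.10 (adjusted p = 0.145).

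Fdps, the synthase of farnesyl diphosphate, was the 1 sterol enzyme called lower in S3 in WT cells. WT S3 arrays read 8.97, 9.30 and 9.59 (lowest, median, highest), against 9.29, 9.71 and 9.90 in WT S1_S2, with overlap. The difference was -0.32 ± 0.07 (limma adjusted p = 0.00272), and it had the same size within block 1 (-0.33, adjusted p = 0.0854) and block 2 (-0.32, adjusted p = 0.115), where it was not called. In Mst1KO cells the sign was the opposite, 0.26 ± 0.09 (adjusted p = 0.0682, not called), with 9.49, 9.62, 9.71, 9.63 and 9.66 in S3 against 9.39, 9.47, 9.29 and 9.31 in S1_S2. These Mst1KO groups did not overlap.

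Sqle and Sc5d were the sterol enzymes called higher in S3 in Mst1KO cells. Sqle, the squalene epoxidase, read 7.04, 7.04, 7.58, 7.29 and 7.23 in Mst1KO S3, against 6.59, 6.60, 6.76 and 6.60 in Mst1KO S1_S2. All S3 arrays were higher, by 0.60 ± 0.15 (fold 1.51, limma adjusted p = 0.0119). In WT cells its difference was 0.17 ± 0.13 (adjusted p = 0.449), and the difference between the 2 stage steps, 0.43 ± 0.20, did not pass (adjusted p = 0.5). Sc5d, a late desaturase of the sterol ring, read 10.80, 10.94, 10.69, 10.82 and 10.65 in Mst1KO S3, against 10.28, 10.60, 10.52 and 10.30 in Mst1KO S1_S2. These groups did not overlap either, with a difference of 0.36 ± 0.10 (fold 1.28, limma adjusted p = 0.0202). This call was lost on quantile normalization (adjusted p = 0.07) and without Mst1KO S1_S2 replicate 1 (0.0885) or 4 (0.0813) or Mst1KO S3 replicate 2 (0.0603).

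The remaining sterol enzymes did not pass either stage test. Hmgcs1, which makes HMG-CoA, differed by 0.52 ± 0.20 in WT (adjusted p = 0.0763) and 0.32 ± 0.24 in Mst1KO cells. Its lowest value, 5.76 in WT S1_S2 replicate 3, was under the negative control median. Hsd17b7 and Nsdhl, which act in removal of the C4 methyl groups, differed by 0.52 ± 0.25 and 0.37 ± 0.16 in WT cells (adjusted p = 0.177 and 0.125), and Msmo1, the C4 methyl oxidase, by 0.33 ± 0.22 in WT and 0.64 ± 0.27 in Mst1KO cells (adjusted p = 0.396 and 0.148). Mvd, the mevalonate diphosphate decarboxylase, differed by 0.24 ± 0.09 in WT (adjusted p = 0.0626), and Fdft1, the squalene synthase, by 0.31 ± 0.11 in Mst1KO cells (adjusted p = 0.0926). Dhcr7, the enzyme of the last reduction, was on the negative side in WT at -0.29 ± 0.11 (adjusted p = 0.069). Pmvk, Ggps1, Lss, Cyp51 and Ebp had adjusted p of 0.301 or more in WT and 0.23 or more in Mst1KO cells.

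Of the fatty acid enzymes, Elovl5 rose with stage in both genotypes. Elovl5, which elongates polyunsaturated fatty acids, read 9.59, 9.82 and 10.34 (lowest, median, highest) in WT S3, against 9.02, 9.17 and 9.62 in WT S1_S2, with overlap by 1 S3 array. The difference was 0.62 ± 0.15 (fold 1.54, limma adjusted p = 0.00384), with 0.79 within block 1 (adjusted p = 0.0105) and 0.42 within block 2 (adjusted p = 0.293, not called). In Mst1KO S3 it read 10.29, 10.43, 9.92, 10.24 and 10.04, against 9.01, 9.39, 9.61 and 8.94 in Mst1KO S1_S2. Every Mst1KO S3 array was higher, by 0.95 ± 0.18 (fold 1.93, limma adjusted p = 0.000728), the largest rise of the 32 genes. Elovl6, which elongates palmitate, rose in Mst1KO cells by 0.41 ± 0.13 (limma adjusted p = 0.0446), with 8.45, 8.75, 8.93, 8.89 and 8.77 in S3 against 8.35, 8.59, 8.31 and 8.13 in S1_S2, groups that overlapped. That call was lost in 7 of 9 omissions of 1 array (adjusted p up to 0.164; all but Mst1KO S1_S2 replicate 2 and Mst1KO S3 replicate 1), without the block term (0.0644) and with the block as a random effect (0.0502).

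Fasn, the synthase that makes palmitate, read 11.18, 11.42 and 11.66 (lowest, median, highest) in WT S3, against 11.46, 11.70 and 11.88 in WT S1_S2, with overlap. It fell by 0.26 ± 0.07 on the log2 scale (fold 0.836, limma adjusted p = 0.0155), with -0.31 within block 1 (adjusted p = 0.092) and -0.20 within block 2 (adjusted p = 0.359). In Mst1KO cells its difference was 0.01 ± 0.09 (adjusted p = 0.981). Acaca, which makes malonyl-CoA, differed by -0.38 ± 0.15 in WT (adjusted p = 0.0994) and 0.03 ± 0.18 in Mst1KO cells. Acly, which makes cytosolic acetyl-CoA from citrate, differed by -0.01 ± 0.06 in WT and 0.06 ± 0.07 in Mst1KO cells. Scd1, the stearoyl-CoA desaturase, read between 6.20 and 6.86 on all arrays, near the negative controls, and Fads2 did not pass in either genotype.

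In Mst1KO cells 7 of the 32 genes were called between stages, 6 higher and 1 lower in S3, against 10.2% of all clusters (5.58% higher and 4.62% lower). The count was 4 without Mst1KO S1_S2 replicate 4 and between 5 and 8 without any other 1 of the 9 Mst1KO arrays. No WT or dKOMst array lacks Y-linked signal, so it is not balanced between genotypes. The count was 1, Elovl5, when the 4 Mst1KO arrays that lack it (replicates 3 and 4 of each stage) were left out. This left fewer arrays, replicates 1 and 2 of Mst1KO S1_S2 and replicates 1, 2 and 5 of Mst1KO S3. The other differences were then 0.51 for Sqle (limma adjusted p = 0.235), 0.35 for Sc5d (0.217), 0.38 for Srebf2 (0.217), 0.33 for Insig1 (0.363), -0.57 for Abca1 (0.462) and 0.19 for Elovl6 (0.684). The stage comparisons of the 2 genotypes use separate arrays. Groups did not overlap for 9 genes in Mst1KO cells (7 above and 2 below; over all clusters 14.1%, with 6.96% above and 7.09% below) and for 2 in WT cells (both above; over all clusters 6.68%, with 3.26% above).

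**Figure D2:**
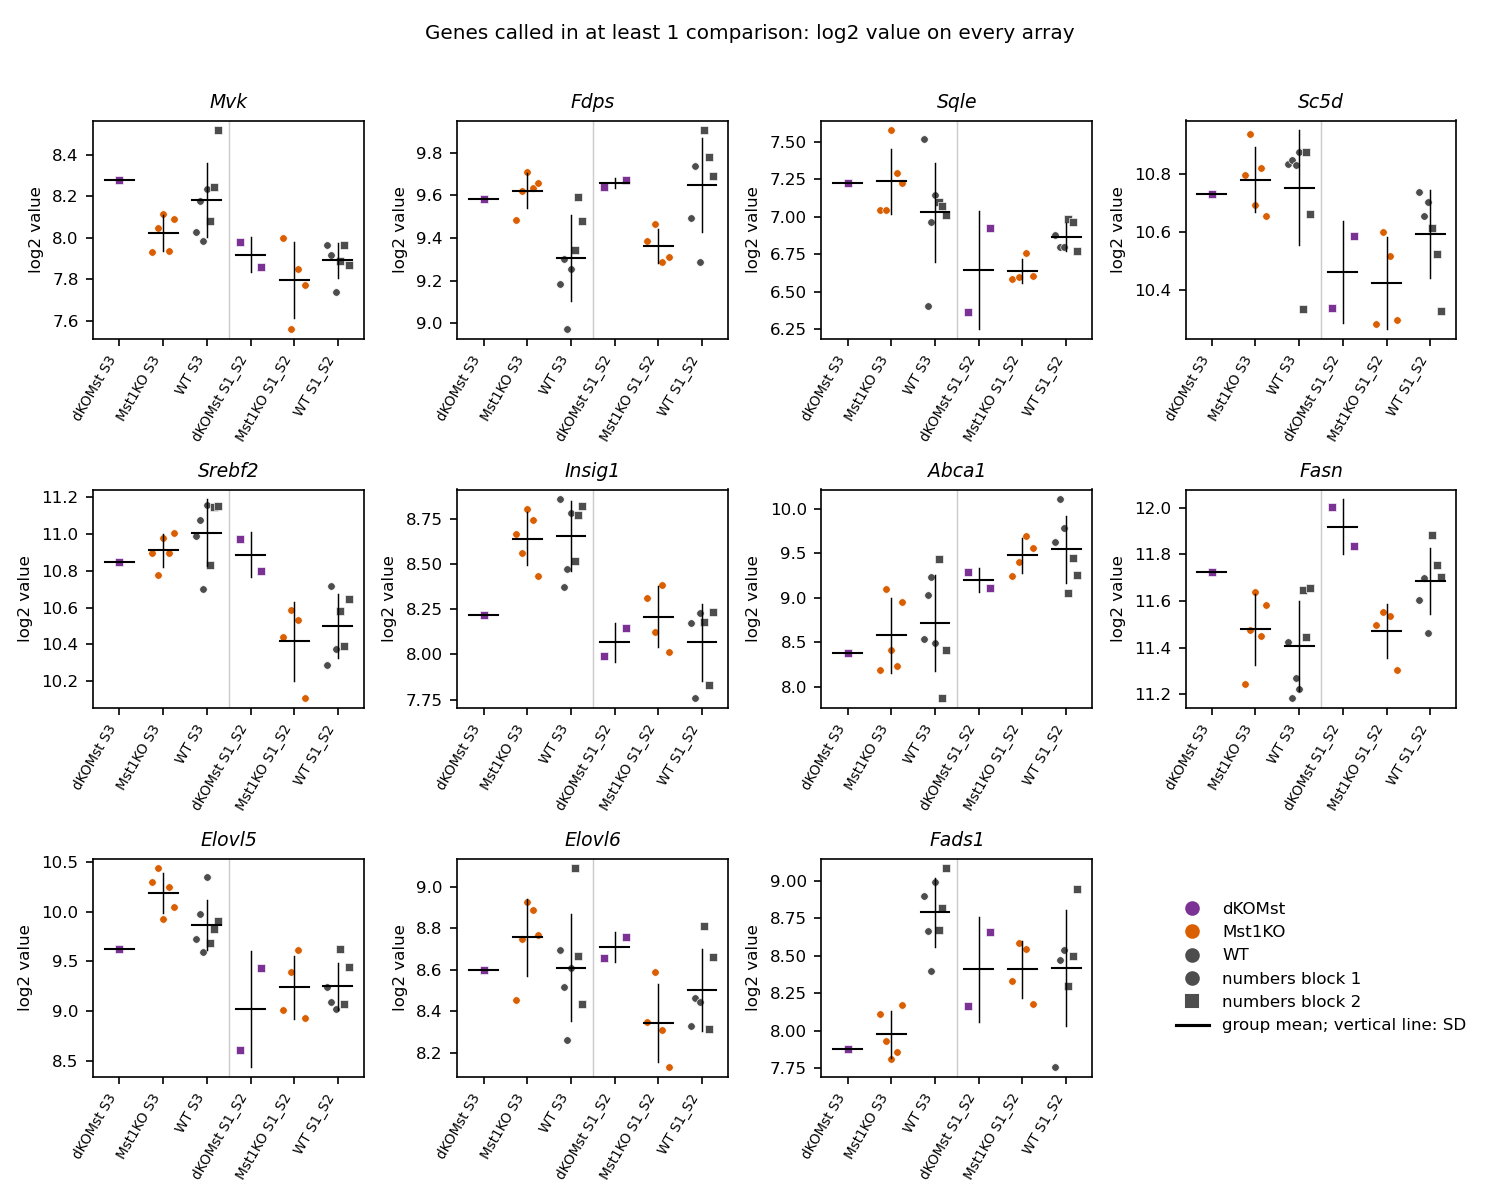
Log2 value on every array for the 11 genes called in at least 1 comparison, by group, with the group mean (horizontal line) and SD (vertical line); circles are arrays of numbers block 1 and squares of block 2. Among Mst1KO and among WT arrays, Insig1 and Elovl5 average higher in S3 than in S1_S2 and Abca1 lower, and the 5 Mst1KO S3 arrays of Fads1 (7.81 to 8.17) sit below all 7 WT S3 arrays (8.40 to 9.08).

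The sterol arm and the fatty acid arm were set side by side as medians of the differences. For S3 minus S1_S2 in WT cells the median was 0.17 for the 17 sterol enzymes, 0.21 for the 7 sensing and handling genes and 0.06 for the 8 fatty acid enzymes, beside 0.01 for all clusters. In Mst1KO cells these were 0.26, 0.24 and 0.04, beside -0.04. The 17 include Idi1, which read below the negative controls; without it the sterol medians were 0.16 in WT and 0.24 in Mst1KO cells. Of the 16 sterol enzymes other than Idi1, 13 differences were positive and 3 negative in Mst1KO cells, and 12 and 4 in WT; of the fatty acid enzymes 6 and 2 in Mst1KO cells, and 4 and 4 in WT. Averaged per array, the 17 sterol enzymes stood at 8.45 ± 0.03 (SD, n = 5) in Mst1KO S3 against 8.25 ± 0.06 (n = 4) in Mst1KO S1_S2, with array ranges of 8.42 to 8.51 against 8.20 to 8.33. Without Idi1 these ranges were 8.67 to 8.72 against 8.42 to 8.58. In WT they stood at 8.43 ± 0.09 (n = 7) in S3 against 8.30 ± 0.11 (n = 6) in S1_S2, ranges that overlap. The fatty acid enzymes averaged 9.20 ± 0.06 in Mst1KO S3 against 9.07 ± 0.15 in Mst1KO S1_S2, and 9.19 ± 0.16 in WT S3 against 9.12 ± 0.07 in WT S1_S2, with overlap in both genotypes. No test was run on these averages, since the genes were chosen with earlier results known. The positive control probes also had higher array medians in Mst1KO S3 (9.943 to 10.005) than in Mst1KO S1_S2 (9.849 to 9.934), while their WT ranges overlapped. The part of such a shift of bright probes in the averages was not tested.

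**Figure D3:**
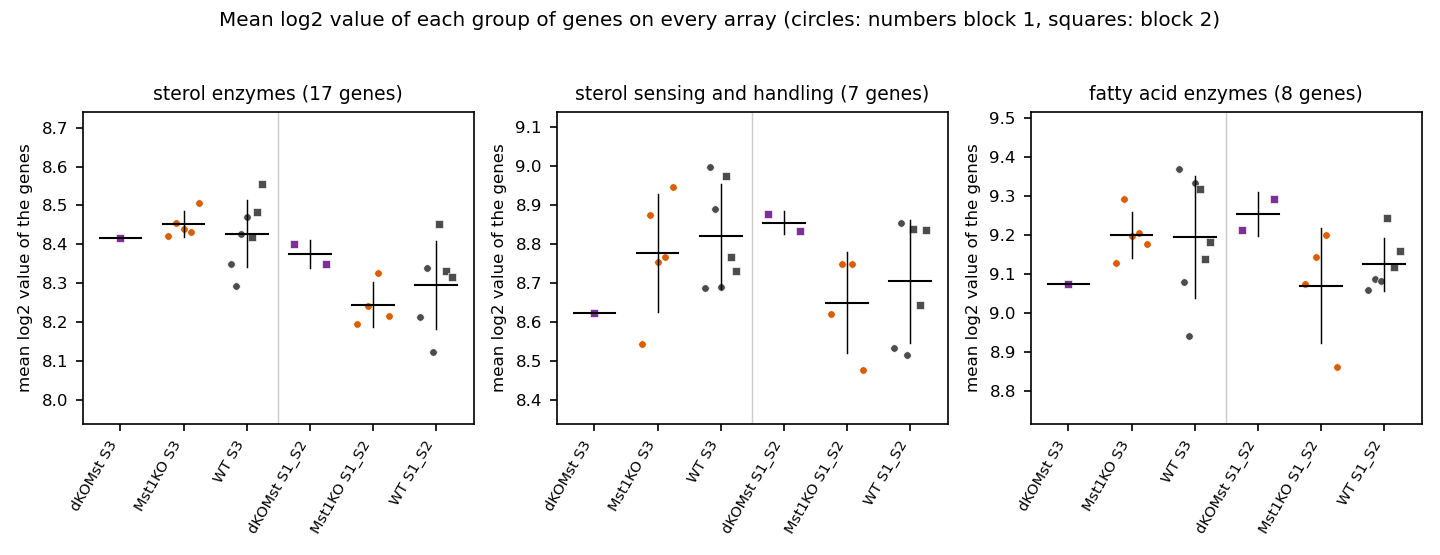
Mean log2 value of the 17 sterol enzymes, 7 sensing and handling genes and 8 fatty acid enzymes on every array, by group, with group means (horizontal) and SD (vertical); the 3 panels span equal ranges. For the sterol enzymes the 5 Mst1KO S3 arrays (8.42 to 8.51) lie above the 4 Mst1KO S1_S2 arrays (8.20 to 8.33), and WT ranges overlap.

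Between Mst1KO and WT S3 cells 1 sterol enzyme and 1 fatty acid desaturase were called: Fdps was higher and Fads1 lower in Mst1KO. These 2 of 32 called genes stand against 6.37% of all clusters called (3.73% higher and 2.64% lower), so the share of these genes is near the background. Fdps read 9.49, 9.62, 9.71, 9.63 and 9.66 in Mst1KO S3, against 8.97, 9.30 and 9.59 (lowest, median, highest) in the 7 WT S3 arrays. The ranges overlapped over all WT arrays, but the 4 WT S3 arrays in the same block as the Mst1KO arrays lay lower, at 8.97 to 9.30. The difference was 0.44 ± 0.08 (fold 1.36, limma adjusted p = 0.00325), also 0.44 within block 1 (adjusted p = 0.0219), and 0.32 without the block term (adjusted p = 0.0828). The call was kept in all 12 omissions of 1 array.

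At S1_S2 Fdps differed by -0.14 ± 0.09 between Mst1KO and WT (adjusted p = 0.764). Thus the Mst1KO effect at S3 exceeded that at S1_S2 by 0.58 ± 0.12 (limma adjusted p = 0.0425), 1 of 32 genes called in this interaction against 0.158% of all clusters (0.0901% in the same direction). That call sat at the threshold. Without 16 of the 22 arrays, each left out alone, its adjusted p was 0.0515 to 0.114: WT S1_S2 replicates 1, 2, 4 and 5, all 4 Mst1KO S1_S2 replicates, WT S3 replicates 1, 3, 5 and 7, and Mst1KO S3 replicates 2 to 5. The call was also lost within block 1 (adjusted p = 0.272), with no block term (0.138), with a random block (0.0805), with only the 4 groups compared (0.0502) and with only the arrays that have Y-linked signal (0.577).

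Fads1, the delta-5 desaturase that makes arachidonic acid, read 8.11, 7.93, 7.81, 7.86 and 8.17 in Mst1KO S3, against 8.40, 8.82 and 9.08 (lowest, median, highest) in WT S3. All 5 Mst1KO arrays lay below all 7 WT arrays, which was so for 1.07% of clusters (2.54% in either direction). It fell by 0.72 ± 0.16 on the log2 scale (fold 0.607, limma adjusted p = 0.00851), with -0.76 within block 1 (adjusted p = 0.0163), and with only the arrays that have Y-linked signal the difference was -0.63 (adjusted p = 0.0856). The call was kept in all 12 omissions of 1 array. At S1_S2 the Mst1KO minus WT difference was 0.10 ± 0.17, and the interaction of -0.82 ± 0.22 did not pass (adjusted p = 0.169). With stage Fads1 differed by -0.43 ± 0.17 in Mst1KO cells and 0.39 ± 0.14 in WT cells (adjusted p = 0.105 and 0.058), neither of them called. Fads2, its delta-6 partner, differed by -0.04 ± 0.21 at S3.

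**Figure D4:**
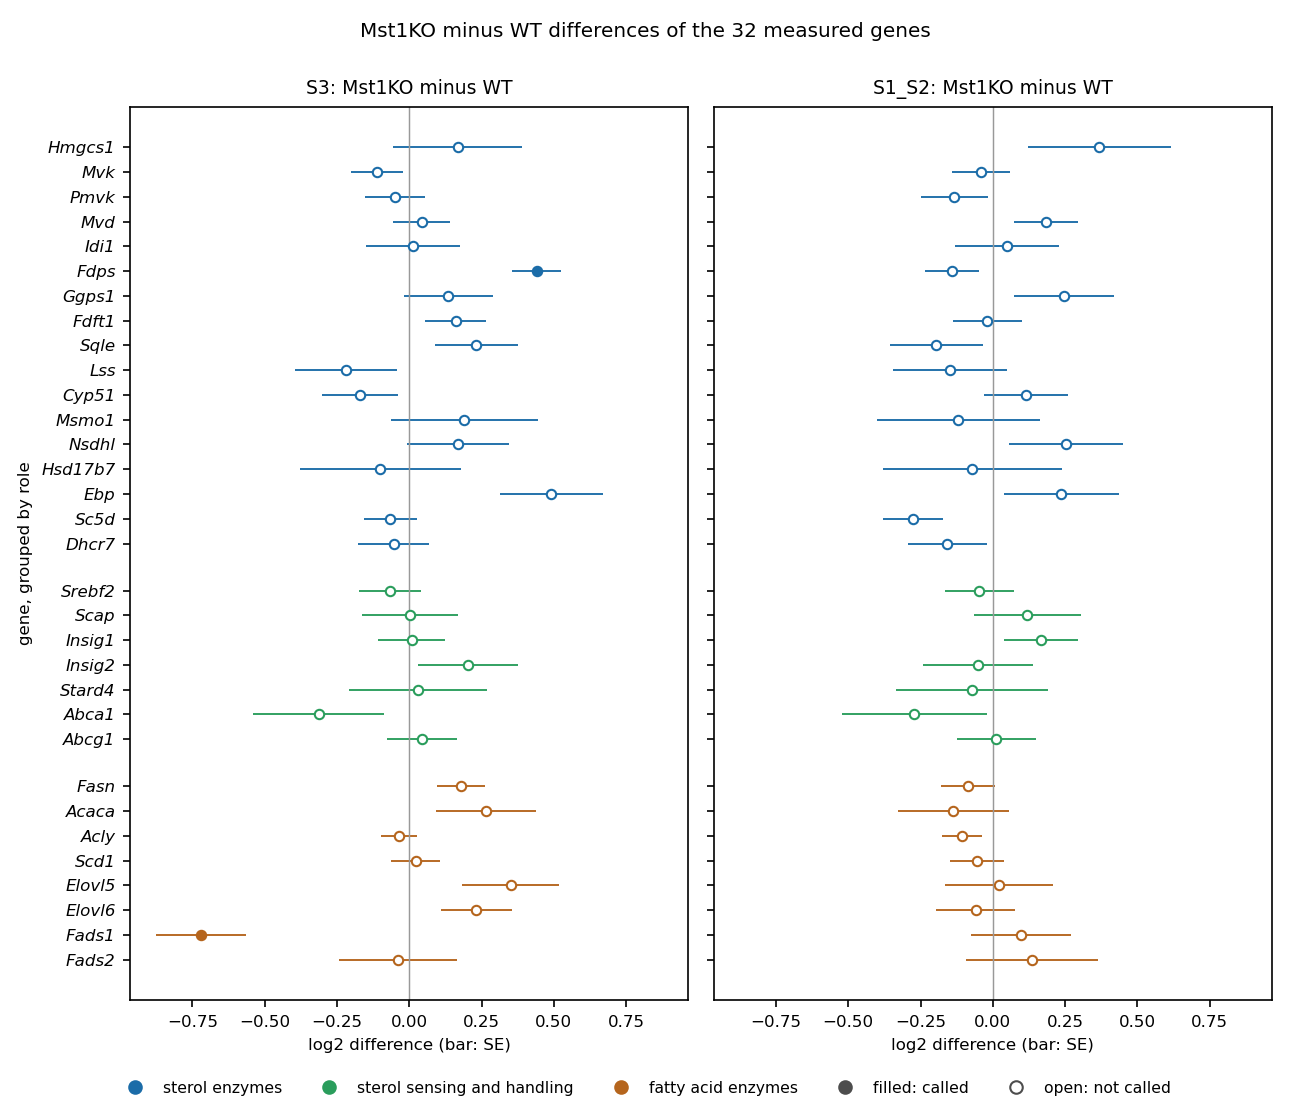
Log2 difference of Mst1KO minus WT at S3 (left) and at S1_S2 (right) for the 32 measured genes, with SE bars; filled points passed the test. At S3 Fdps (0.44) and Fads1 (-0.72) are filled, and at S1_S2 no point is.

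The other 30 genes did not pass between Mst1KO and WT at S3. Their standard errors, with those of Fdps and Fads1, were 0.06 to 0.28, so small differences could be missed. Ebp, the sterol isomerase, had 0.49 ± 0.18 (adjusted p = 0.0988), Elovl5 0.35 ± 0.17 (0.205) and Fasn 0.18 ± 0.08 (0.196). Srebf2 and Insig1, which rose with stage, differed by -0.07 ± 0.11 and 0.01 ± 0.12. By arm the median was 0.04 for the 17 sterol enzymes (0.09 without Idi1), 0.01 for sensing and handling genes and 0.10 for fatty acid enzymes, beside -0.05 for all clusters.

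At S1_S2 no gene was called between Mst1KO and WT, against 0.522% of all clusters, and 1 of the 32 had an unadjusted p under 0.05 by limma, as had 8.65% of all clusters. That gene was Sc5d, at 10.28, 10.60, 10.52 and 10.30 in Mst1KO against 10.33, 10.63 and 10.74 (lowest, median, highest) in WT. Its groups overlapped, and the difference was -0.28 ± 0.10 (limma adjusted p = 0.369). Mvd, next by p, read 9.09, 8.99, 8.70 and 9.08 in Mst1KO against 8.52, 8.83 and 9.04 in WT, with a difference of 0.18 ± 0.11 (adjusted p = 0.718) and overlap. Sqle was the 1 gene whose groups did not overlap, at 6.59 to 6.76 in Mst1KO against 6.77 to 6.99 in WT (-0.20 ± 0.16, adjusted p = 0.838; 1.08% of clusters lay below in this way and 2.58% in either direction). Standard errors were 0.07 to 0.31.

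In dKOMst S1_S2 cells no gene was called against WT S1_S2, beside 0.923% of all clusters, and 2 had an unadjusted p under 0.05 by limma, as had 10.6% of all clusters. This comparison shares its WT arrays with the one above. Srebf2 read 10.98 and 10.80 in dKOMst, against 10.29, 10.49 and 10.72 (lowest, median, highest) in WT. Both dKOMst arrays were above all WT arrays, with a difference of 0.35 ± 0.15 (limma adjusted p = 0.357). Fads2 read 7.70 and 7.04 in dKOMst, against 6.17, 6.82 and 6.96 in WT, also without overlap (0.67 ± 0.28, adjusted p = 0.358). Hsd17b7 and Scap were the other genes with both dKOMst arrays above all WT arrays, making 4 of 32, against 7.66% of clusters above and 14.3% without overlap in either direction.

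Against Mst1KO S1_S2, dKOMst S1_S2 again gave no called gene, beside 0.171% of all clusters, and 2 with an unadjusted p under 0.05 by limma, as had 8.5% of all clusters. The 2 groups lie in different blocks, so the difference rests on the block term estimated from WT arrays. Srebf2 read 10.98 and 10.80 in dKOMst against 10.44, 10.59, 10.53 and 10.11 in Mst1KO, values before the block term (0.40 ± 0.17, limma adjusted p = 0.518). Cyp51, the lanosterol demethylase, read 7.88 and 7.23 in dKOMst against 8.10, 7.76, 8.03 and 7.62 in Mst1KO, with overlap (-0.48 ± 0.21, adjusted p = 0.543). Standard errors reached 0.45 with 2 dKOMst arrays, and 0.38 against WT.

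The single dKOMst S3 array has no replicate and was set beside the 3 WT S3 arrays of its block, with no test. Fads1 read 7.88 on it, against 8.67 to 9.08 in WT (mean 8.86), a difference of -0.98. It thus lay low in the dKOMst array as in the 5 Mst1KO S3 arrays; the 2 comparisons share these WT arrays. Msmo1 read 7.35 against a WT mean of 8.09 (-0.73), and Ebp read 10.02 against 9.40 (0.62). These were the genes at least 1.5-fold apart, 1 higher and 2 lower, where 1.88% and 2.44% of clusters passed that fold. Insig1 read 8.22 against 8.70 (-0.48) and Fdps 9.58 against 9.34 to 9.59. The dKOMst array lay outside the WT range for 18 of the 32 genes, against 52.5% of clusters.

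Other genes of the same pathways were counted in lists that hold none of the 32. Of 26 measured other sterol genes 3 were called higher and 5 lower in WT S3 than in WT S1_S2, with a median of -0.03. Over all clusters 8.18% were higher and 8.75% lower. Mylip, whose product marks lipoprotein receptors for breakdown, rose by 0.65 ± 0.07 on the log2 scale (limma adjusted p = 3.79e-07) and Lrp8, a lipoprotein receptor, fell by 0.76 ± 0.14 (adjusted p = 0.000366). Mylip also rose in Mst1KO cells (0.59 ± 0.09, adjusted p = 4.97e-05), the 1 called gene of that list there. Lrp8 was the 1 called at S3 between genotypes, higher in Mst1KO by 1.32 ± 0.16 (adjusted p = 3.29e-05). Over all clusters 10.2% were called between stages in Mst1KO cells and 6.37% between Mst1KO and WT at S3.

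Of 38 measured other fatty acid genes 2 were called higher and 7 lower in WT S3 (median -0.06). In Mst1KO S3 3 were called higher and 4 lower (median -0.06), each against S1_S2 of the same genotype. Over all clusters 8.18% were higher and 8.75% lower in WT, and 5.58% higher and 4.62% lower in Mst1KO cells. Agpat2, an acyltransferase of phosphatidic acid synthesis, rose in WT (0.65 ± 0.14, limma adjusted p = 0.00127) and in Mst1KO cells (0.90 ± 0.17, adjusted p = 0.000666). Lpcat3, which puts polyunsaturated chains into phospholipids, fell in both (-0.62 ± 0.10 in WT, adjusted p = 3.65e-05; -0.57 ± 0.12 in Mst1KO, adjusted p = 0.0015). Between genotypes at S3, Elovl1, the elongase of very long chains, was higher in Mst1KO by 0.62 ± 0.09 (limma adjusted p = 0.000175), Lpcat3 was higher by 0.50 ± 0.11 (0.00928) and Thrsp lower, by -0.37 ± 0.10 (0.0327). Over all clusters 3.73% were higher and 2.64% lower there. Thrsp, a lipogenesis-linked gene, was also the 1 called gene of both lists at S1_S2, higher in dKOMst than in WT (0.85 ± 0.14, adjusted p = 0.00183) and than in Mst1KO (0.90 ± 0.17, adjusted p = 0.0165). Over all clusters 0.923% and 0.171% were called in these 2 comparisons.

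Other gene groups moved with the same comparisons. Of 18 measured G2 and M phase genes 18 were called lower in S3 in WT cells (median -2.01) and 17 in Mst1KO cells (median -1.30). At S3 13 were called higher in Mst1KO than in WT (median 0.83). Over all clusters these shares were 8.75%, 4.62% and 3.73%. Mki67, a marker of cycling cells, read 9.89 to 10.45 in Mst1KO S3 against 8.36 to 9.45 in WT S3. NK cell markers averaged 9.17 to 9.43 per array in Mst1KO S3 against 6.41 to 6.55 in Mst1KO S1_S2, and 8.94 to 9.25 in WT S3 against 6.26 to 6.99 in WT S1_S2, with 7 of 7 measured markers above the negative controls on at least 1 WT S3 array. S3 cells were sorted as NK1.1+, so a rise of these markers cannot be assigned to NK cells. Of the 7, 3 were called higher and 1 lower in Mst1KO than in WT at S3, where 6.37% of all clusters were called. The largest of these differences were Ncr1 (-0.99, limma adjusted p = 0.0437), Klri2 (0.94, adjusted p = 0.0387) and Itga2 (0.76, adjusted p = 0.0112). In dKOMst S1_S2 the markers averaged 6.97 to 7.12. There Fcer1g (2.06, limma adjusted p = 2.71e-05) and Eomes (0.91, adjusted p = 0.0203) were higher than in WT S1_S2, and the sort marker Klrb1c was lower (-1.18, adjusted p = 0.0198). Myeloid and dendritic cell markers averaged 7.01 to 7.17 in Mst1KO S3 against 6.86 to 7.05 in Mst1KO S1_S2, and 7.09 to 7.22 in WT S3 against 6.82 to 7.04 in WT S1_S2, with 10 of 11 above the negative controls on at least 1 WT S3 array. With stage Lyz2 (1.00, limma adjusted p = 1.55e-07), Mpeg1 (0.85, adjusted p = 4.54e-05) and Cst3 (0.23, adjusted p = 0.00928) rose in WT cells. In Mst1KO cells Lyz2 (1.02, adjusted p = 5.07e-06) and Mpeg1 (0.77, adjusted p = 0.00218) rose. The other 8 and 9 of these markers were not called. Itgam (0.93, limma adjusted p = 0.00803) and Lyz2 (0.70, adjusted p = 0.0369) were higher in dKOMst S1_S2 than in WT S1_S2. The other 9 were not called there, and 5 of the 11 differences were negative. Over all clusters 0.923% were called in that comparison. B cell markers averaged 6.68 to 7.07 and thymic epithelium markers 6.71 to 7.06 over the arrays of all groups, near the negative controls. Of the measured markers, 7 of 7 and 7 of 8 were above the negative controls on at least 1 WT S3 array. Cd22, a B cell marker, rose with stage in WT cells (0.48, limma adjusted p = 0.014). The other 6 B cell markers were not called there, and 3 of the 7 differences were negative. Epcam, a thymic epithelium marker, rose with stage in Mst1KO cells (0.67, limma adjusted p = 0.0204). The other 7 thymic epithelium markers were not called there, and 4 of the 8 differences were negative. Between stages 16.9% of all clusters were called in WT and 10.2% in Mst1KO cells. Double-positive thymocyte markers, some of which T cells also express, averaged 7.77 to 7.99 in Mst1KO S3 against 7.66 to 7.85 in Mst1KO S1_S2, and 7.42 to 7.91 in WT S3 against 7.54 to 7.83 in WT S1_S2. Of the 8 measured, Dntt and Cd8a rose and Cd4 fell with stage in Mst1KO cells (1.06, 0.67 and -0.47; limma adjusted p = 0.0438, 0.0325 and 0.00736), and Dntt rose and Cd4 fell in WT cells (0.91 and -0.44; adjusted p = 0.0245 and 0.00155). At S3, Cd8b1 was higher and Cd4 lower in Mst1KO than in WT (0.73, limma adjusted p = 0.0183, and -0.47, adjusted p = 0.0126). The other 6 were not called there, and 6.37% of all clusters were. The part of cycling, of the mix of S1 and S2 or of other cells in the differences above was not tested.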

How the data were processed

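RNA of sorted thymic iNKT cells was amplified and hybridised to Clariom S arrays, 25 in all. The deposited values are log2 signals per transcript cluster; the submitters' processing notes name RMA and Affymetrix Expression Console 1.1. The precision of array values is limited by how many arrays each group has. Control probe sets were left out, which left 22206 clusters, 19572 of them with 1 gene symbol. Each comparison was fitted with limma 3.58.1 in R 4.3.3 over all clusters, with means for 6 groups and a term for the block of title numbers (18 residual degrees of freedom), with Benjamini-Hochberg adjustment over the whole array and a threshold of 0.05. The model was tested on simulated data. Alternatives were other treatments of the block, quantile normalization, a filter on dim clusters, trended and robust variances, subsets of arrays, a minimum fold of 1.5, omission of each array and, chosen after seeing the data, pairs of arrays by title number. The genes and gene lists were chosen with earlier results of these data known. All 32 genes may be named. Values per array are given for those called, at most 8 a comparison, and otherwise for the 2 with the smallest p. From other lists up to 3 called genes with the largest difference are named per comparison. Promoter windows of 250 bases came from RefSeq.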

Additional observations from a re-analysis of the deposited data

Results flagged for a closer look

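In groups of 4 to 7 arrays, 12 of 128 gene and group sets held 1 array far from the others; chance gives about 5%. WT S1_S2 replicate 3 was the low array in 4 of them: Ggps1 at 8.49 (the others 9.25 to 9.64), Ebp at 8.4 (9.49 to 9.89), Scap at 8.36 (9.06 to 9.4) and Abcg1 at 8.4 (9 to 9.15). Over all clusters, that array was the far low one for 1.13% and the far high one for 1.31%. WT S3 replicate 1 was low for Hmgcs1 at 6.56 (7.22 to 7.36) and Nsdhl at 8.72 (9.47 to 9.94). Other WT arrays stood low for 3 genes: S3 replicate 2 for Msmo1 at 6.6 (7.82 to 8.49), S3 replicate 5 for Sc5d at 10.34 (10.66 to 10.88) and S1_S2 replicate 6 for Fads2 at 6.17 (6.7 to 6.96).

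Among Mst1KO arrays, S3 replicate 1 was low for Stard4 at 7.27 (the others 8.14 to 8.41), S1_S2 replicate 1 was low for Ggps1 at 9.11 (9.31 to 9.35), and S1_S2 replicate 3 was high for Sqle at 6.76 (6.59 to 6.6). The difference of the Mst1KO effect on Fdps between S3 and S1_S2, 0.58 by the limma interaction term, was the 1 such difference called among these genes. That call was lost in 16 of 22 omissions of 1 array and in 6 of 10 other settings. Of the genes with a far array, Sqle and Sc5d were called higher in S3 than in S1_S2 in Mst1KO cells. The Sqle call was kept without each of the 9 Mst1KO arrays and lost with only the arrays that have Y-linked signal (adjusted p = 0.235 by limma). The Sc5d call was lost in 3 of those 9 omissions.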

How the results depend on the processing

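Apart from omission of single arrays, repeats of a named gene's difference kept direction and side of the threshold in 199 cases, lost the call with the same direction in 26 and reversed in 0. The 199 include repeats of differences that were never called and had no call to lose. These were Sc5d and Mvd between Mst1KO and WT at S1_S2, and Srebf2, Fads2 and Cyp51 in the dKOMst comparisons. All 26 losses fell on called differences. Below are settings that moved the number of genes called or the share of all clusters called by over 1.5 times; the cause was not tested. WT S3 minus WT S1_S2 (7 genes and 16.9%) gave 4 and 8.65% in block 1 only, 4 and 8.57% in block 2 only, 3 and 6.25% at 1.5-fold or more, and 7 to 11 genes on omission of 1 array. Mst1KO S3 minus Mst1KO S1_S2 (7 and 10.2%) gave 1 and 4.29% with the arrays that have Y-linked signal, 3 and 4.92% at 1.5-fold, and 4 to 8 genes on omission. Mst1KO minus WT at S3 (2 and 6.37%) gave 1 and 3.29% with no block term, 1 and 2.14% with Y-linked signal, 1 and 1.89% at 1.5-fold, 3.86% with a random block, 3.06% in block 1, 2.26% with only the groups compared, and 2 to 3 genes and 3.53% (without Mst1KO S3 replicate 5) to 6.3% on omission. The interaction (1 and 0.158%) gave 0 and 0.0766% with no block term, 0 with a random block, 0 and 0.045% in block 1, 0 and 0.104% with only the groups compared, 0 and 0% with Y-linked signal, 0 at 1.5-fold, and 0 to 1 genes and 0.063% to 0.275% on omission. At S1_S2 the number of genes was 0 in every alternative run. Clusters of Mst1KO minus WT (0.522%) were 0.288% in block 1, 0.252% with only the groups compared, 0.104% with Y-linked signal, 0.342% at 1.5-fold and 0.297% to 0.784% on omission. Those of dKOMst minus WT (0.923%) were 0.306% in block 2, 0.27% with only the groups compared, 1.54% with trended and robust variances and 0.149% to 1.04% on omission. Those of dKOMst minus Mst1KO (0.171%) were 0.878% with no block term, 0.365% with a random block, 0.27% with trended and robust variances, 0.0315% with Y-linked signal and 0.018% to 0.234% on omission; only the groups compared could not be fitted, since they lie in different blocks. The labels give no replicate numbers shared between groups, but title numbers of S3 and S1_S2 arrays run at a constant offset in each block. Taken as pairs, a choice made after seeing the data, their deviations from group means correlated at 0.056 to 0.171 over clusters, over 0.1 in 4 of 10 pairs and highest with the own pair in 9 of 10, a hint from the data and not the design. With these pairs as a replicate block, 8 genes were called in WT (Fads1 added, 0.44, limma adjusted p = 0.0244) and 6 in Mst1KO cells (Elovl6 lost, adjusted p = 0.0733), and the interaction gave 0 and 0.0405% (Fdps 0.54, adjusted p = 0.202). Differences of genes near the negative controls, such as Hmgcs1, Scd1 and Sqle, rest on signals little above background.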
